A study of Mus musculus with 12 samples.

Results

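Transforming growth factor beta (TGF-beta) signalling was followed through 9 genes: the ligands Tgfb1, Tgfb2 and Tgfb3, the receptors Tgfbr1 and Tgfbr2, the signal transducer Smad3, the inhibitory SMADs Smad6 and Smad7, and the corepressor Skil. They were taken by gene symbol from a table of 45777 genes, of which 15932 passed the filter on low counts, all 9 among them. Sequencing covered 12 libraries of mpkCCDc11, a clonal epithelial line from the cortical collecting duct of the mouse kidney, in 4 groups of 3 libraries: TAZ siRNA with dDAVP, control siRNA with dDAVP, TAZ siRNA with vehicle, and control siRNA with vehicle. dDAVP, an agonist of the vasopressin V2 receptor, was given at 1e-09 M to the basolateral side. All groups shared a wild-type genotype, growth on permeable filters and a period in medium without serum or hormones before treatment. TAZ is a Hippo pathway coactivator encoded by Wwtr1. More than one exposure time to dDAVP appears in the labels, with none tied to these libraries. Nor is it stated that replicate libraries are separate cultures, so p-values here measure spread that may be technical.

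TGF-beta ligands are secreted in a latent complex with their own propeptide, often bound to a latent TGF-beta binding protein, and integrins and proteases release the active dimer. The active ligand binds TGFBR2, which recruits and phosphorylates TGFBR1, and TGFBR1 phosphorylates SMAD2 and SMAD3, which enter the nucleus with SMAD4. Smad7 and Skil are targets of the pathway that act back on it as inhibitors, and in the kidney TGF-beta is best known as a driver of fibrosis. TAZ can bind SMAD complexes and hold them in the nucleus.

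The siRNA lowered its target in part. Wwtr1 ranged from 108 to 127 CPM (counts scaled to the library total) in TAZ siRNA dDAVP libraries, against 161 to 174 CPM in control siRNA dDAVP libraries. With vehicle it ranged from 114 to 119 CPM under TAZ siRNA and from 177 to 186 CPM under control siRNA. Library totals ran from 45095331 to 61725339 counts, and CPM are scaled by TMM factors. All 5 epithelial markers (Epcam, Cdh1, Krt8, Krt18 and Krt19) were present at over 100 CPM in every library, as were the principal-cell genes Gata3 and Hsd11b2. The principal-cell genes Scnn1a (88.9 to 141 CPM), Avpr2 (20.9 to 47.9 CPM) and Scnn1g (4.60 to 9.57 CPM) were present too, whereas Aqp3, Scnn1b, Aqp4 and Elf5 stayed at or below 1.20 CPM. Aqp2, the vasopressin-regulated water channel, reached 9.11 to 13.7 CPM in TAZ siRNA dDAVP libraries and 29.3 to 44.8 CPM in control siRNA dDAVP libraries, and no vehicle library exceeded 0.343 CPM. Unless another tool is named, adjusted p-values are from edgeR's quasi-likelihood test, adjusted by Benjamini-Hochberg over all 15932 genes. Calls are at adjusted p under 0.05, and fold changes are log2 values ± SE.

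Tgfb2 fell both with dDAVP and with TAZ siRNA, and no other gene of the 9 was called in all 4 comparisons. Tgfb2 encodes a ligand that needs the coreceptor betaglycan for high-affinity binding to TGFBR2 (gene 21808, mm10 chromosome 1 from 186622787 to 186709697). It stood at 5.54, 7.73 and 5.86 CPM in TAZ siRNA dDAVP libraries and at 8.26, 9.64 and 9.16 CPM in control siRNA dDAVP libraries. Its level was 11.3, 10.8 and 10.5 CPM in TAZ siRNA vehicle libraries and 15.7, 16.3 and 16.7 CPM in control siRNA vehicle libraries. The groups lay in that order with no overlap between any pair, and the neighbours in the middle (control siRNA dDAVP and TAZ siRNA vehicle), which differ in both factors, were not tested against each other. dDAVP lowered Tgfb2 with TAZ siRNA (-0.77 ± 0.10, adjusted p = 4.44e-05) and with control siRNA (-0.85 ± 0.10, adjusted p = 4.69e-06), and these comparisons share no library. TAZ siRNA lowered it with dDAVP (-0.51 ± 0.10, adjusted p = 0.00381) and with vehicle (-0.58 ± 0.09, adjusted p = 0.00135). The dDAVP response differed between the siRNAs by 0.07 ± 0.14 (adjusted p = 0.931), which did not pass the test. Lrp2, a proximal tubule marker, was called lower in the same 4 comparisons, with values given with the markers below. The other markers on its list, Cubn, Slc34a1 and Slc5a2, did not exceed 1.22 CPM, and none of them was called. The part of Lrp2 in the changes of Tgfb2 was not tested. In bulk RNA, fewer cells that express a gene and less RNA per cell cannot be told apart.

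Tgfb3 responded to TAZ siRNA, and its level with dDAVP did not pass the test under either siRNA. Tgfb3 encodes a ligand expressed widely in epithelium and mesenchyme (gene 21809, chromosome 12 from 86056743 to 86079041). It measured 20.7, 24.7 and 22.9 CPM in TAZ siRNA dDAVP libraries, against 26.7, 29.5 and 29.7 CPM in control siRNA dDAVP libraries. With vehicle it measured 22.3, 18.2 and 19.7 CPM under TAZ siRNA, against 29.9, 30.2 and 30.9 CPM under control siRNA. Every TAZ siRNA library was below every control siRNA library, in either medium. The fall with TAZ siRNA was -0.33 ± 0.07 with dDAVP (adjusted p = 0.00664) and -0.59 ± 0.07 with vehicle (adjusted p = 0.000193). The change with dDAVP was 0.18 ± 0.07 under TAZ siRNA (adjusted p = 0.147) and -0.08 ± 0.07 under control siRNA (adjusted p = 0.491). The difference of these responses, 0.26 ± 0.10, was the largest among the 9 genes and did not survive adjustment (unadjusted p = 0.0219, adjusted p = 0.516). Of the 12 fits that left out a library, the dDAVP change under TAZ siRNA passed in 1, without TAZ siRNA vehicle replicate 1 (0.26, adjusted p = 0.0313). The other fits gave changes down to 0.11 and adjusted p up to 0.499. It passed in none of the 7 other alternatives.

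Tgfb1 was the ligand that rose with TAZ siRNA. Tgfb1 encodes the ligand most often linked to renal fibrosis (gene 21803, chromosome 7 from 25687002 to 25705077). It was at 31.0, 30.5 and 30.0 CPM in TAZ siRNA dDAVP libraries and at 23.3, 24.5 and 25.0 CPM in control siRNA dDAVP libraries, a gap wider than the spread within either group (0.33 ± 0.06, adjusted p = 0.00143). With vehicle it was at 27.4, 30.5 and 32.9 CPM under TAZ siRNA and at 25.8, 26.3 and 27.3 CPM under control siRNA. These vehicle groups lay next to each other without overlap, and the difference of 0.19 ± 0.06 missed the threshold (adjusted p = 0.0634). It passed with DESeq2 (adjusted p = 0.0341) and with the GC correction described below (adjusted p = 0.0342), and in none of the 5 other alternatives that kept all libraries. Of the 12 fits that left out a library it passed in 1, without TAZ siRNA vehicle replicate 1 (0.25, adjusted p = 0.00725), and without replicate 3 of that group it was 0.12 (adjusted p = 0.306). The change with dDAVP was 0.01 ± 0.06 under TAZ siRNA (adjusted p = 0.934) and -0.13 ± 0.06 under control siRNA (adjusted p = 0.158, and 0.0459 with the GC correction).

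**Figure D1:**
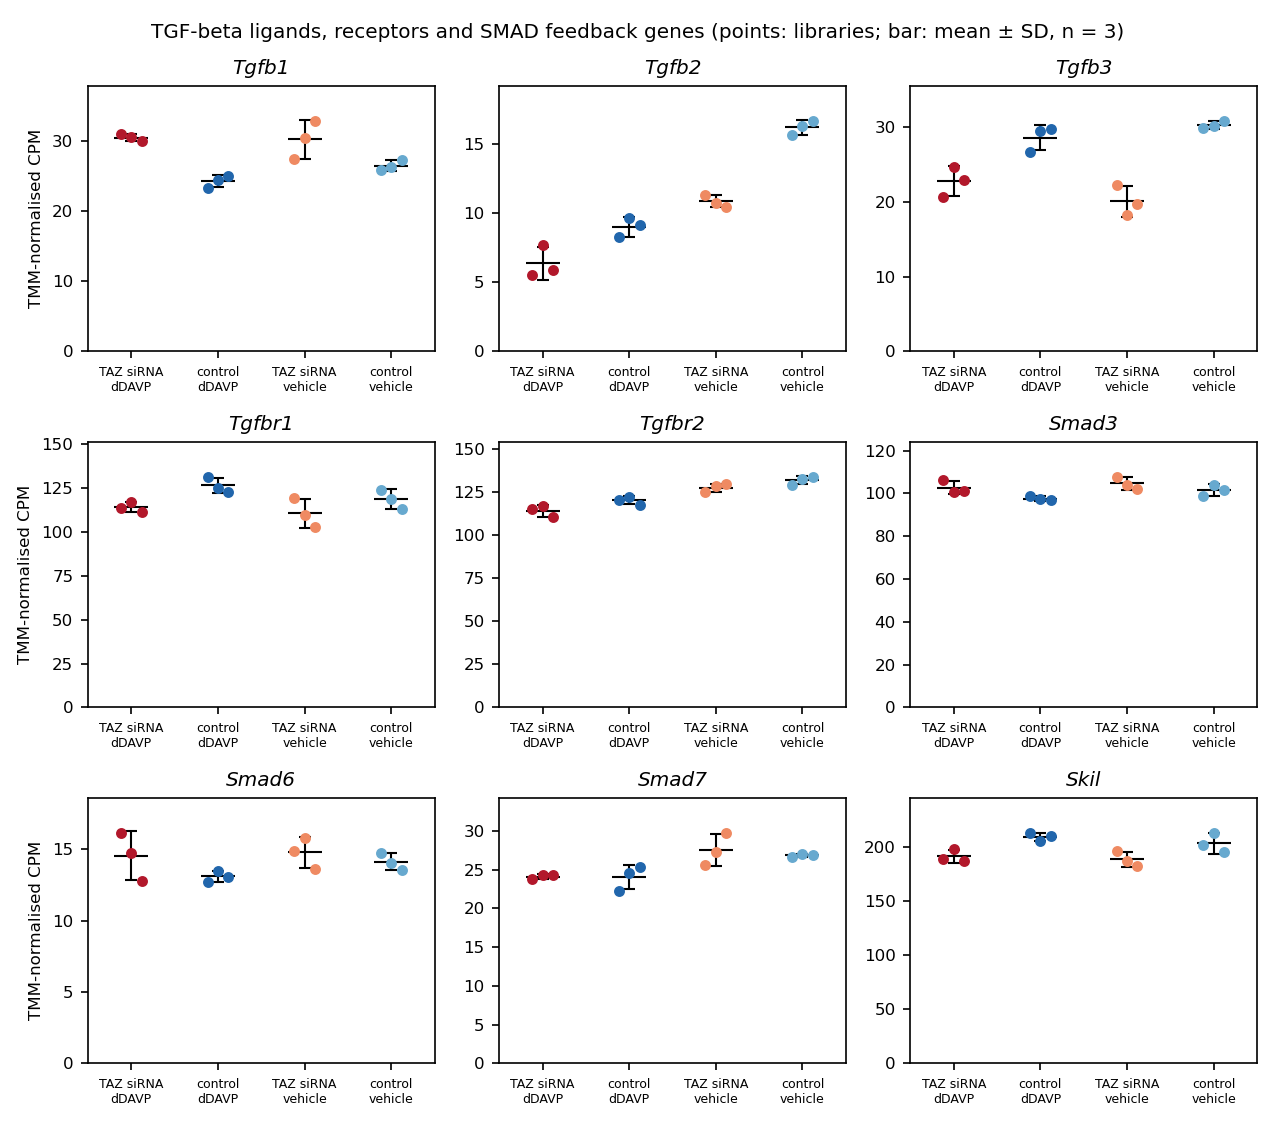
TMM-normalised CPM of the 9 genes in each library, with the 4 groups along the horizontal axis; points are libraries and bars give the mean ± SD of 3 libraries. Tgfb2 steps up across the 4 groups without overlap, Tgfb3 is lower and Tgfb1 higher in TAZ siRNA groups than in control siRNA groups, and the other genes lie in narrow bands.

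The makeup of the ligand transcripts differed between the siRNAs. Their summed TPM (a level corrected for transcript length and library total) averaged 57.9 ± 2.3 in TAZ siRNA dDAVP libraries, 55.3 ± 2.0 in control siRNA dDAVP libraries, 59.0 ± 2.2 in TAZ siRNA vehicle libraries and 64.6 ± 1.3 in control siRNA vehicle libraries (SD, n = 3). With dDAVP, Tgfb1 made up 64.5% of that sum under TAZ siRNA and 52.5% under control siRNA. With vehicle its share was 64.1% under TAZ siRNA and 50.9% under control siRNA. TAZ siRNA libraries thus held a larger Tgfb1 share in either medium. Tgfb3 held 30.9% under TAZ siRNA and 39.8% under control siRNA with dDAVP, and 27.4% under TAZ siRNA and 37.5% under control siRNA with vehicle. Tgfb2 was the smallest part everywhere, at 4.62% in TAZ siRNA dDAVP libraries, 7.64% in control siRNA dDAVP libraries, 8.49% in TAZ siRNA vehicle libraries and 11.6% in control siRNA vehicle libraries. These shares are descriptions, and they say nothing of secreted or active protein.

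**Figure D2:**
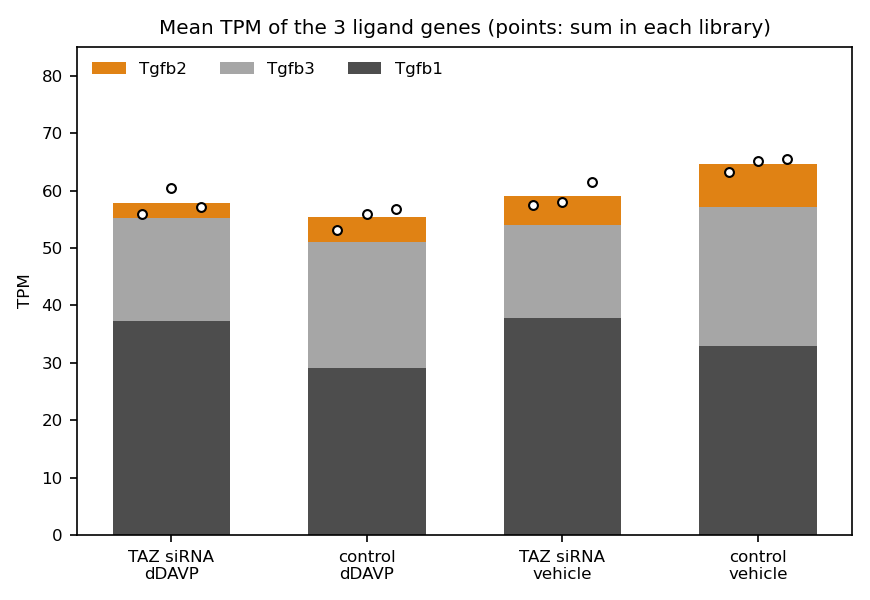
Mean TPM of the ligand genes stacked by group, with the sum in each library as an open point. The summed level lies between 55.3 and 64.6 TPM in the group means while the Tgfb1 part is larger in both TAZ siRNA groups and the Tgfb2 part is smallest with TAZ siRNA and dDAVP.

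The promoters of Tgfb2, Tgfbr2 and Tgfb1 are shown because the first and second fell with dDAVP and the last rose with TAZ siRNA. The windows are the 250 bases before the RefSeq start (GRCm38.p6), 5′ to 3′ on the gene's strand, and 6 of the 9 genes had an entry in the promoter table. Capitals mark matches to the CAGA box CAGACA, to which SMAD3 and SMAD4 bind, and to the CRE core TGACG, the shorter form of the cyclic AMP response element (CRE), on either strand. The windows lie at chr1:186705990-186706239 (minus strand) for Tgfb2, chr9:116175364-116175613 (minus strand) for Tgfbr2 and chr7:25686752-25687001 (plus strand) for Tgfb1.
Tgfb2: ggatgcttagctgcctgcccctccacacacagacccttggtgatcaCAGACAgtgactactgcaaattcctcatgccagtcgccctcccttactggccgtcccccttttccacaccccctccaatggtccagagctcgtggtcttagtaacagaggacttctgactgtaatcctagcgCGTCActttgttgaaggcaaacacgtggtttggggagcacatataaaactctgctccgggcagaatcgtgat
Tgfbr2: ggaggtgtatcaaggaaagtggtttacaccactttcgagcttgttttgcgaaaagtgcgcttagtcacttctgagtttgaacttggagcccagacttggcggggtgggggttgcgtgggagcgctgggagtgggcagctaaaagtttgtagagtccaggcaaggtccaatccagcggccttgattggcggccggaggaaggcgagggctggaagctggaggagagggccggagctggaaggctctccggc
Tgfb1: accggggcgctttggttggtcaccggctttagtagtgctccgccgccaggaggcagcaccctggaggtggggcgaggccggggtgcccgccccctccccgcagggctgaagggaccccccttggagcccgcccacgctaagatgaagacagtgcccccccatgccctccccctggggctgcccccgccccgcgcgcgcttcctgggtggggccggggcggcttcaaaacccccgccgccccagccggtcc
Tgfb2 held 1 CAGA box at positions -204 to -199 and 1 CRE core, on the minus strand relative to the gene, at -72 to -68, counted back from the start. The windows of Tgfbr2 and Tgfb1 held neither. Of the other genes with an entry, Smad3 and Smad6 held neither. A window of Tgfbr1, which was not called in any comparison, held a CAGA box at -203 to -198 and no CRE core. Among 32851 promoter windows of the same length, 17.1% held a CAGA box and 17.8% a CRE core. The full CRE TGACGTCA (1.55% of windows), the TEAD element CATTCC (12.6%), the AP-1 element TGANTCA (6.75%) and the palindromic SMAD box GTCTAGAC (0.167%) had no match in the windows of these genes. The short SMAD element GTCT, which the CAGA box contains on its other strand, occurred in 82.9% of all windows and 3 times in that of Tgfb2. The base composition of the windows differed, with 53.6% GC for Tgfb2, 58.4% for Tgfbr2 and 75.2% for Tgfb1. The window of Tgfb2 lies within the span of the gene, since its longest models begin at 186709697. A match is a description of letters, and the binding of any factor was not measured.

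Of the receptors, Tgfbr2 fell slightly with dDAVP under either siRNA. Tgfbr2 encodes the receptor that binds the ligand first (gene 21813, chromosome 9 from 116087695 to 116175363). With TAZ siRNA it was at 115, 117 and 111 CPM with dDAVP, against 125, 128 and 130 CPM with vehicle. With control siRNA it was at 121, 122 and 118 CPM with dDAVP, against 130, 133 and 134 CPM with vehicle. The dDAVP and vehicle libraries did not overlap under either siRNA. The fall was -0.16 ± 0.03 under TAZ siRNA (adjusted p = 0.0028) and -0.14 ± 0.03 under control siRNA (adjusted p = 0.00616). TAZ siRNA gave -0.07 ± 0.03 with dDAVP (adjusted p = 0.17) and -0.05 ± 0.03 with vehicle (adjusted p = 0.433).

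Tgfbr1 encodes the receptor kinase that phosphorylates SMAD2 and SMAD3 (gene 21812, chromosome 4 from 47353222 to 47414926), and it was not called in any comparison. It measured 114, 117 and 111 CPM in TAZ siRNA dDAVP libraries, against 132, 125 and 123 CPM in control siRNA dDAVP libraries. These groups did not overlap, and the difference of -0.15 ± 0.05 just missed the threshold (adjusted p = 0.0566). The adjusted p was 0.0285 with DESeq2, 0.0438 with no filter on low counts, 0.0149 when no other groups were in the model and 0.129 with the GC correction. Leaving out TAZ siRNA vehicle replicate 1 gave 0.0178 and leaving out replicate 3 gave 0.0279, while the 10 other such fits did not pass (adjusted p up to 0.193, without control siRNA dDAVP replicate 1). With vehicle it ranged from 103 to 119 CPM under TAZ siRNA and from 113 to 124 CPM under control siRNA (-0.10 ± 0.05, adjusted p = 0.24). Without TAZ siRNA vehicle replicate 1 that change was -0.17 (adjusted p = 0.0262), and without replicate 3 it was -0.06 (adjusted p = 0.634). The dDAVP changes were 0.05 ± 0.05 under TAZ siRNA (adjusted p = 0.623) and 0.09 ± 0.05 under control siRNA (adjusted p = 0.208, and 0.0498 with the GC correction).

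Among the intracellular genes, Smad3 and Smad6 passed no test. Smad3, the transducer (gene 17127, chromosome 9 from 63646766 to 63757994), lay between 96.8 and 108 CPM in all 12 libraries. Its 4 changes ran from -0.06 to 0.07, with adjusted p from 0.198 to 0.698. Smad6, which mainly inhibits bone morphogenetic protein (BMP) signalling (gene 17130, chromosome 9 from 63953076 to 64022085), lay between 12.7 and 16.2 CPM. Its changes ran from -0.11 to 0.16, with SE of 0.08 each and adjusted p from 0.253 to 0.925. The widest spread within a group was that of TAZ siRNA with dDAVP, at 16.2, 14.7 and 12.7 CPM.

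Smad7 encodes the inhibitor that brings ubiquitin ligases to the TGF-beta receptors (gene 17131, chromosome 18). With TAZ siRNA it was at 23.7, 24.3 and 24.3 CPM with dDAVP, against 25.6, 27.3 and 29.8 CPM with vehicle. With control siRNA it was at 22.3, 24.5 and 25.3 CPM with dDAVP, against 26.7, 27.1 and 26.9 CPM with vehicle. The dDAVP libraries were the lower ones in both pairs, without overlap. The change passed the threshold under TAZ siRNA (-0.19 ± 0.06, adjusted p = 0.0408) and missed it under control siRNA (-0.16 ± 0.06, adjusted p = 0.0662), and the difference of the responses was -0.03 ± 0.08 (adjusted p = 0.952). The first call held when control siRNA dDAVP replicate 1, 2 or 3 or TAZ siRNA vehicle replicate 1 was left out, and was lost without any 1 of the other libraries (adjusted p up to 0.148). It was also lost with limma-voom (adjusted p = 0.0548) and when the model held no libraries but those compared (adjusted p = 0.0732). Under control siRNA the adjusted p was 0.0166 with the GC correction, 0.0483 without control siRNA dDAVP replicate 3, 0.0379 without TAZ siRNA vehicle replicate 1 and 0.0391 without its replicate 3. TAZ siRNA changed Smad7 by 0.00 ± 0.06 with dDAVP (adjusted p = 0.982) and by 0.04 ± 0.06 with vehicle (adjusted p = 0.786).

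Skil encodes SnoN, a corepressor that binds SMAD complexes on target genes (gene 20482, chromosome 3 from 31095058 to 31122923). It was at 189, 198 and 186 CPM in TAZ siRNA dDAVP libraries, against 212, 205 and 210 CPM in control siRNA dDAVP libraries. The groups did not overlap, and Skil passed the threshold there (-0.13 ± 0.04, adjusted p = 0.0362). With the GC correction the change was -0.08 (adjusted p = 0.137), which ended the call. The call was also lost without control siRNA vehicle replicate 1, control siRNA dDAVP replicate 1, 2 or 3, or TAZ siRNA dDAVP replicate 1 or 3 (adjusted p up to 0.142). With vehicle Skil was at 196, 187 and 182 CPM under TAZ siRNA, against 201, 213 and 195 CPM under control siRNA, with overlap (-0.11 ± 0.04, adjusted p = 0.109). Leaving out a library gave from -0.14 (adjusted p = 0.0318, without TAZ siRNA vehicle replicate 1) to -0.07 (adjusted p = 0.362, without control siRNA vehicle replicate 2). dDAVP gave 0.02 ± 0.04 under TAZ siRNA (adjusted p = 0.8) and 0.04 ± 0.04 under control siRNA (adjusted p = 0.495).

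**Figure D3:**
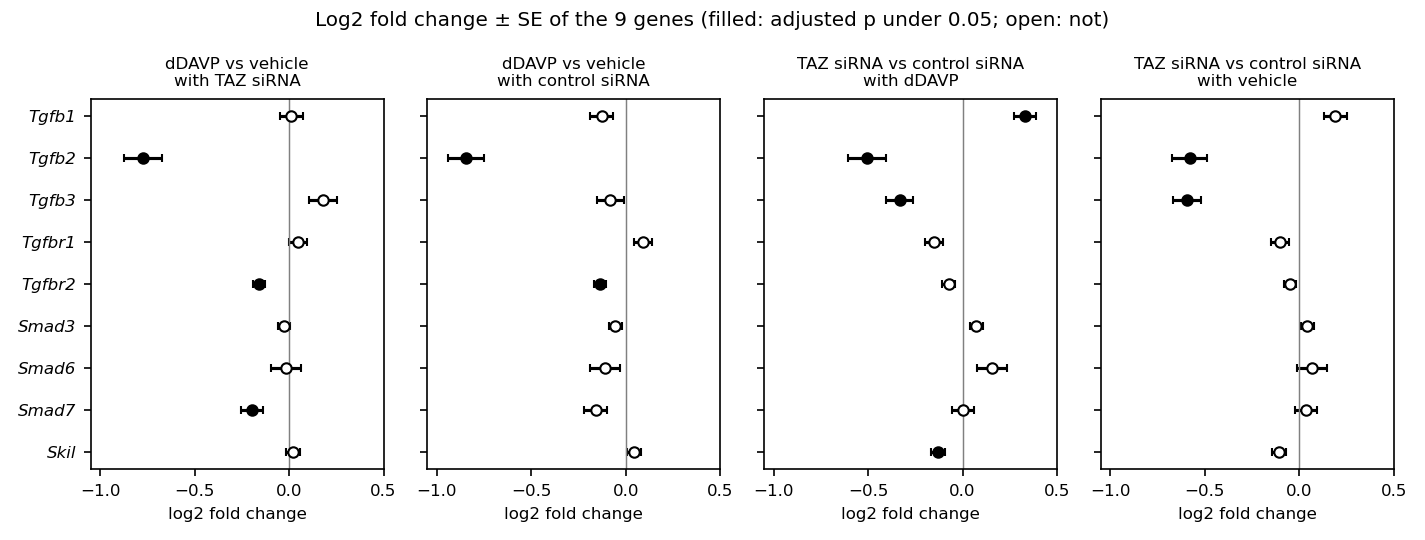
Log2 fold change ± SE of the 9 genes in the 4 comparisons, with filled points for an adjusted p under 0.05. Tgfb2 is filled in all 4 panels, Tgfbr2 in both dDAVP panels, Tgfb3 in both TAZ siRNA panels, and most other points lie within 0.2 of 0.

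Counted over the 9 genes, dDAVP under TAZ siRNA lowered 3 (Tgfb2, Tgfbr2 and Smad7) and raised none, or 33.3% called. Over all genes tested it called 10.8%, with 6.38% higher and 4.41% lower. Under control siRNA dDAVP lowered 2 (Tgfb2 and Tgfbr2) and raised none, or 22.2%, close to the 19.2% called over all genes tested (9.72% higher and 9.48% lower). TAZ siRNA with dDAVP raised 1 (Tgfb1) and lowered 3 (Tgfb2, Tgfb3 and Skil), or 44.4%, where 10.7% of all genes were called, 5.77% higher and 4.97% lower. TAZ siRNA with vehicle lowered 2 (Tgfb2 and Tgfb3), or 22.2%, where 6.3% of all genes were called, 3.19% higher and 3.11% lower. Median changes of the 9 genes were -0.02, -0.11, -0.07 and -0.05 in those comparisons, against 0.00 over all genes in each. None of the 9 was called in the difference of the dDAVP responses, in which edgeR called 5 genes (0.0314%), DESeq2 called 87 genes and 1295 genes had an unadjusted p under 0.05. Each dDAVP comparison shares a group of libraries with each TAZ siRNA comparison, and the genes were picked with earlier results known, so these counts are descriptions.

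Among genes of latency and activation, Itgb6, Itgb8, Bmp1 and Ltbp4 fell with dDAVP under either siRNA, and Ltbp3 and Ltbp4 rose with TAZ siRNA in either medium. Of 18 listed genes 13 were tested. dDAVP raised 2 and lowered 5 of them under TAZ siRNA, and raised 1 and lowered 6 under control siRNA. The calls in either direction made up 53.8% of the tested genes for dDAVP under TAZ siRNA (10.8% over all genes), 53.8% for dDAVP under control siRNA (19.2%), 23.1% for TAZ siRNA under dDAVP (10.7%) and 30.8% for TAZ siRNA under vehicle (6.3%). The median change over the tested genes was -0.16 with dDAVP under TAZ siRNA, -0.16 with dDAVP under control siRNA, 0.12 with TAZ siRNA under dDAVP and 0.06 with TAZ siRNA under vehicle, against 0.00 over all genes in each. Itgb6 encodes the beta subunit of the epithelial integrin that activates latent TGF-beta. It was at 59.5, 60.1 and 56.1 CPM with dDAVP, against 89.6, 86.2 and 83.7 CPM with vehicle, under TAZ siRNA (-0.56 ± 0.04, adjusted p = 2.5e-08). Under control siRNA it was at 61.1, 62.2 and 63.7 CPM with dDAVP, against 102, 102 and 95.3 CPM with vehicle (-0.68 ± 0.04, adjusted p = 1.08e-09). Itgb8, the beta subunit of another activating integrin, fell by 0.65 ± 0.14 under TAZ siRNA (adjusted p = 0.00568) and by 0.76 ± 0.15 under control siRNA (adjusted p = 0.00122), and did not exceed 5.94 CPM in any library. Ltbp3, described with TAZ siRNA below, fell with dDAVP under control siRNA, to 240 ± 3.7 CPM with dDAVP against 298 ± 9.2 CPM with vehicle (-0.31 ± 0.04, adjusted p = 1.42e-05). Ltbp4 was at 76.0 ± 3.3 CPM with dDAVP against 85.8 ± 3.7 CPM with vehicle under TAZ siRNA. Under control siRNA it was at 56.6 ± 0.91 CPM with dDAVP against 66.9 ± 1.3 CPM with vehicle. Bmp1, a protease that cuts latent binding proteins from the matrix, fell by 0.19 ± 0.04 under TAZ siRNA (adjusted p = 0.00624) and by 0.31 ± 0.04 under control siRNA (adjusted p = 4.14e-05). Furin, a protease that cleaves the propeptide, rose by 0.19 ± 0.04 with dDAVP under TAZ siRNA (adjusted p = 0.00186). Under control siRNA Furin was also higher with dDAVP, at 149, 143 and 142 CPM, against 133, 131 and 130 CPM with vehicle.

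TAZ siRNA raised 3 genes of latency and activation with dDAVP and lowered none, and raised 3 and lowered 1 with vehicle. Ltbp3 and Ltbp4 encode latent TGF-beta binding proteins. Ltbp3 measured 331, 319 and 329 CPM under TAZ siRNA, against 236, 241 and 243 CPM under control siRNA, with dDAVP (0.44 ± 0.04, adjusted p = 3.4e-06). Ltbp4 measured 79.3, 72.6 and 76.1 CPM under TAZ siRNA, against 56.2, 56.0 and 57.7 CPM under control siRNA, with dDAVP (0.42 ± 0.04, adjusted p = 5.8e-06). With vehicle the changes were 0.24 ± 0.04 for Ltbp3 (adjusted p = 0.00151) and 0.36 ± 0.04 for Ltbp4 (adjusted p = 6.74e-05). Bmp1 rose by 0.28 ± 0.04 with dDAVP (adjusted p = 0.000347), and its rise with vehicle (0.16 ± 0.04, adjusted p = 0.0341) was lost in most fits that left out a library (adjusted p up to 0.193). The gene lowered with vehicle was Itgb6 (-0.20 ± 0.04, adjusted p = 0.00429).

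**Figure D4:**
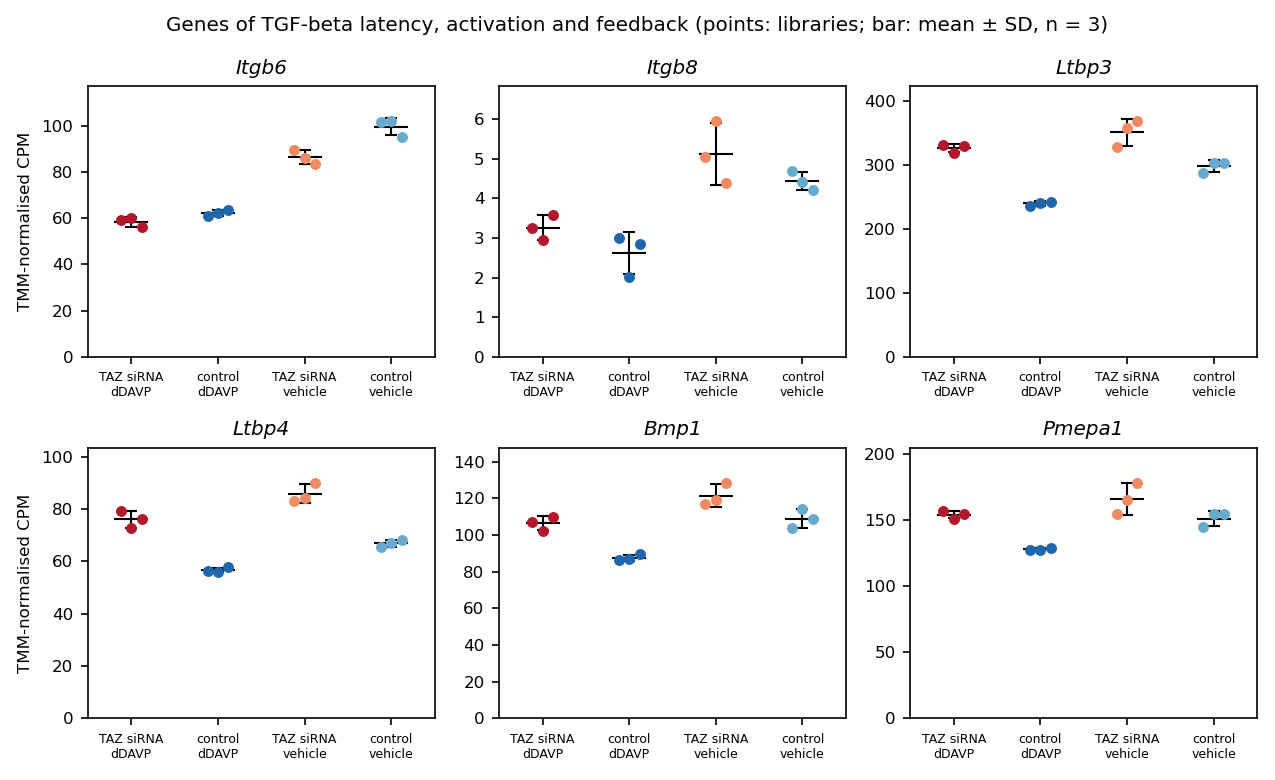
TMM-normalised CPM of Itgb6, Itgb8, Ltbp3, Ltbp4, Bmp1 and Pmepa1 in each library, by group, with the mean ± SD of 3 libraries. Itgb6 and Itgb8 are lower in the dDAVP groups than in the vehicle groups, and Ltbp3 and Ltbp4 are higher in TAZ siRNA than in control siRNA libraries.

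Among 14 other receptors and accessory proteins 12 were tested. dDAVP raised 1 and lowered 1 under TAZ siRNA and raised 1 and lowered 3 under control siRNA, while TAZ siRNA raised 2 with dDAVP and changed none with vehicle. That is 16.7% of the tested genes for dDAVP under TAZ siRNA (10.8% over all genes), 33.3% for dDAVP under control siRNA (19.2%), 16.7% for TAZ siRNA under dDAVP (10.7%) and 0% for TAZ siRNA under vehicle (6.3%). The median change over the tested genes was -0.02 with dDAVP under TAZ siRNA, -0.13 with dDAVP under control siRNA, 0.03 with TAZ siRNA under dDAVP and -0.04 with TAZ siRNA under vehicle, against 0.00 over all genes. Dab2, an adaptor that links TGF-beta receptors to SMADs, was at 16.2, 14.4 and 14.6 CPM under TAZ siRNA, against 9.85, 10.7 and 10.9 CPM under control siRNA, with dDAVP (0.52 ± 0.08, adjusted p = 0.000396). It fell with dDAVP under control siRNA (-0.58 ± 0.08, adjusted p = 5.46e-05). Its fall under TAZ siRNA (-0.31 ± 0.08, adjusted p = 0.0133) was lost without TAZ siRNA vehicle replicate 2 (0.0562) or TAZ siRNA dDAVP replicate 2 (0.0528) or 3 (0.056). Bambi, a decoy receptor, was listed at 0 in every library.

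Of 24 other SMADs, corepressors and turnover factors 23 were tested. dDAVP raised 1 and lowered 1 under TAZ siRNA and raised 1 and lowered 9 under control siRNA, and TAZ siRNA raised 3 with dDAVP and changed none with vehicle. That is 8.7% of the tested genes for dDAVP under TAZ siRNA (10.8% over all genes), 43.5% for dDAVP under control siRNA (19.2%), 13.0% for TAZ siRNA under dDAVP (10.7%) and 0% for TAZ siRNA under vehicle (6.3%). The median change over the tested genes was -0.01 with dDAVP under TAZ siRNA, -0.06 with dDAVP under control siRNA, 0.01 with TAZ siRNA under dDAVP and -0.03 with TAZ siRNA under vehicle, against 0.00 over all genes. Nedd4l, a ubiquitin ligase that acts on SMADs and on the epithelial sodium channel, rose with dDAVP by 0.35 ± 0.04 under TAZ siRNA (adjusted p = 1.8e-05) and by 0.39 ± 0.04 under control siRNA (adjusted p = 2.73e-06). Pmepa1, a target of TGF-beta that inhibits SMAD activation, was at 156, 151 and 154 CPM under TAZ siRNA, against 127, 127 and 129 CPM under control siRNA, with dDAVP (0.27 ± 0.04, adjusted p = 0.000549). It fell with dDAVP under control siRNA (-0.24 ± 0.04, adjusted p = 0.00058). The corepressor Tgif1 also rose with TAZ siRNA under dDAVP (0.21 ± 0.04, adjusted p = 0.00465) and fell with dDAVP under control siRNA (-0.27 ± 0.04, adjusted p = 0.000202). Tgif1 was also the gene lowered with dDAVP under TAZ siRNA (-0.15 ± 0.04, adjusted p = 0.0344), a call lost in some fits that left out a library (adjusted p up to 0.107). Skil, also a corepressor, went the other way with TAZ siRNA under dDAVP, as given above.

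Of 30 listed target genes of TGF-beta 22 were tested, and those called lay in both directions in each comparison. dDAVP raised 3 and lowered 1 under TAZ siRNA and raised 4 and lowered 4 under control siRNA, and TAZ siRNA raised 5 and lowered 3 with dDAVP and raised 2 and lowered 2 with vehicle. That is 18.2% of the tested genes for dDAVP under TAZ siRNA (10.8% over all genes), 36.4% for dDAVP under control siRNA (19.2%), 36.4% for TAZ siRNA under dDAVP (10.7%) and 18.2% for TAZ siRNA under vehicle (6.3%). The median change over the tested genes was -0.02 with dDAVP under TAZ siRNA, -0.07 with dDAVP under control siRNA, 0.14 with TAZ siRNA under dDAVP and 0.08 with TAZ siRNA under vehicle, against 0.00 over all genes. With dDAVP, TAZ siRNA raised Lmcd1, a LIM domain cofactor (0.72 ± 0.11, adjusted p = 0.000289), Itga5, a fibronectin receptor subunit (0.37 ± 0.07, adjusted p = 0.00327), and Fn1, fibronectin (0.22 ± 0.04, adjusted p = 0.00338). It lowered Hmga2, a chromatin protein (-0.21 ± 0.05, adjusted p = 0.00529). With vehicle, TAZ siRNA also raised Itga5 (0.30 ± 0.07, adjusted p = 0.0168) and lowered Hmga2 (-0.19 ± 0.04, adjusted p = 0.0151), while Lmcd1 and Fn1 were not called. Each of these vehicle calls held in 9 of the 12 fits that left out a library. Acta2, smooth muscle actin, was below 0.469 CPM in every library, and its 2 calls (1.73 with dDAVP under control siRNA and 2.02 with TAZ siRNA under vehicle) were each lost in all 12 fits that left out a library. Vim, Tgfbi, Zeb1, Snai2, Col1a2 and Lox, targets typical of mesenchymal cells, were listed at 0 in every library. Other such targets on the list were not at 0. Fn1 ranged from 917 to 1202 CPM and Col1a1 from 3.42 to 6.02 CPM, while Zeb2 and Postn reached at most 0.137 and 0.0515 CPM.

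In the BMP and activin branch 16 of 24 genes were tested. dDAVP raised 3 and lowered 1 under TAZ siRNA and raised 2 and lowered 3 under control siRNA, and TAZ siRNA raised 1 and lowered 1 with dDAVP and raised 2 and lowered 1 with vehicle. That is 25.0% of the tested genes for dDAVP under TAZ siRNA (10.8% over all genes), 31.2% for dDAVP under control siRNA (19.2%), 12.5% for TAZ siRNA under dDAVP (10.7%) and 18.8% for TAZ siRNA under vehicle (6.3%). The median change over the tested genes was -0.11 with dDAVP under TAZ siRNA, -0.07 with dDAVP under control siRNA, -0.01 with TAZ siRNA under dDAVP and 0.03 with TAZ siRNA under vehicle, against 0.00 over all genes. Id3, a target of BMP signalling, rose with dDAVP by 0.76 ± 0.14 under TAZ siRNA (adjusted p = 0.0011) and by 0.80 ± 0.14 under control siRNA (adjusted p = 0.000447). Gdf15, a distant member of the ligand family, rose by 0.62 ± 0.07 under TAZ siRNA (adjusted p = 1.71e-05) and by 0.80 ± 0.07 under control siRNA (adjusted p = 4.22e-07). Gdf11 fell by 0.50 ± 0.08 under TAZ siRNA (adjusted p = 0.000475) and by 0.38 ± 0.08 under control siRNA (adjusted p = 0.00278). Nbl1, a secreted BMP antagonist, rose with TAZ siRNA under dDAVP (0.42 ± 0.05, adjusted p = 8.22e-05) and fell with dDAVP under control siRNA (-0.41 ± 0.05, adjusted p = 2.8e-05). No gene on these 5 lists was called in the difference of the dDAVP responses.

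Levels between the 9 genes can be compared per length. In control siRNA vehicle libraries Skil (79.0 TPM), Tgfbr2 (75.1 TPM), Tgfbr1 (55.9 TPM) and Smad3 (54.1 TPM) were the most abundant, and Tgfb1 (32.9 TPM), Tgfb3 (24.2 TPM), Smad7 (16.6 TPM), Smad6 (13.0 TPM) and Tgfb2 (7.47 TPM) were lower. The TPM of Tgfb2 depends on how counts were divided among transcript models of unequal length. Its model NM_009367 of 5116 bases held from 33.0% to 94.2% of the gene's count in single libraries, and XM_030252968 of 8700 bases held from 3.24% to 66.2%. NM_009367 spread widely with dDAVP, at 55.9% ± 22 under TAZ siRNA and 80.7% ± 12 under control siRNA, and less with vehicle, at 53.7% ± 3.5 under TAZ siRNA and 61.4% ± 1.4 under control siRNA (SD, n = 3). NM_001329107 held 0% in every dDAVP library. With vehicle it held 15.4% ± 14 under TAZ siRNA, from 0% to 25.4% in single libraries, and 8.26% ± 7.4 under control siRNA. XM_006497136 held 0.83% under TAZ siRNA and 0.85% under control siRNA with dDAVP, against 6.45% and 5.48% with vehicle. For Tgfbr2, NM_009371 held 45.5% ± 8.0 with dDAVP and 56.6% ± 5.7 with vehicle under TAZ siRNA, and 47.6% ± 7.4 with dDAVP and 61.6% ± 6.7 with vehicle under control siRNA. Its other model, NM_029575, held the rest. Under control siRNA NM_029575 had 3510, 4518 and 3016 counts (not scaled) with dDAVP, against 3022, 2702 and 2400 with vehicle. Under TAZ siRNA it had 3455, 3523 and 2478 counts with dDAVP, against 2866, 3762 and 3669 with vehicle. These shares and counts were not tested. Tgfb1 and Tgfb3 each had 1 model.

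Across the 12 libraries, which share groups, Tgfb2 and Tgfbr2 ran together (r = 0.93 on log2(CPM + 1)), as did Tgfbr1 and Skil (r = 0.88). Tgfb1 ran opposite to Tgfbr1 (r = -0.91) and to Skil (r = -0.89). Of all genes tested, Arl13b (r = 0.97), Jun (r = 0.96) and Rtf1 (r = 0.95) were the most like Tgfb2. The gene most like each of the others was Coro7 for Tgfb1 (r = 0.96), Hbp1 for Tgfb3 (r = 0.95), Klf3 for Tgfbr1 (r = 0.97), Zfp113 for Tgfbr2 (r = 0.94), Slc46a2 for Smad3 (r = 0.92), Tm6sf2 for Smad6 (r = 0.87), Cldn12 for Smad7 (r = 0.93) and Pola1 for Skil (r = 0.96). These likenesses are descriptions over libraries that share groups and base composition, and Slc46a2 did not exceed 0.339 CPM.

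With dDAVP, base composition differed between the siRNAs, while the vehicle groups overlapped. In TAZ siRNA dDAVP libraries the genes in the highest quintile of transcript GC content lay above those in the lowest quintile by 0.152, 0.0432 and 0.0871 (median log2 deviation from the mean of all libraries), while control siRNA dDAVP libraries gave -0.0461, -0.00753 and -0.0425. Vehicle libraries ran from -0.0849 to 0.0888 under TAZ siRNA and from -0.105 to 0.0111 under control siRNA. The median change with TAZ siRNA under dDAVP was -0.05 for the lowest quintile and 0.07 for the highest. For dDAVP under TAZ siRNA these medians were -0.06 and 0.04. They were -0.02 and 0.01 for dDAVP under control siRNA, and -0.02 and 0.04 for TAZ siRNA under vehicle. Tgfbr1 and Skil have the lowest transcript GC of the 9 genes (41% each), and Smad6 the highest (60.8%). With the trend removed from each library, the calls of Tgfb1, Tgfb2, Tgfb3 and Tgfbr2 were all kept, Skil lost its call, and Tgfb1, Tgfbr1 and Smad7 joined the genes called for dDAVP under control siRNA, 5 in place of 2.

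**Figure D5:**
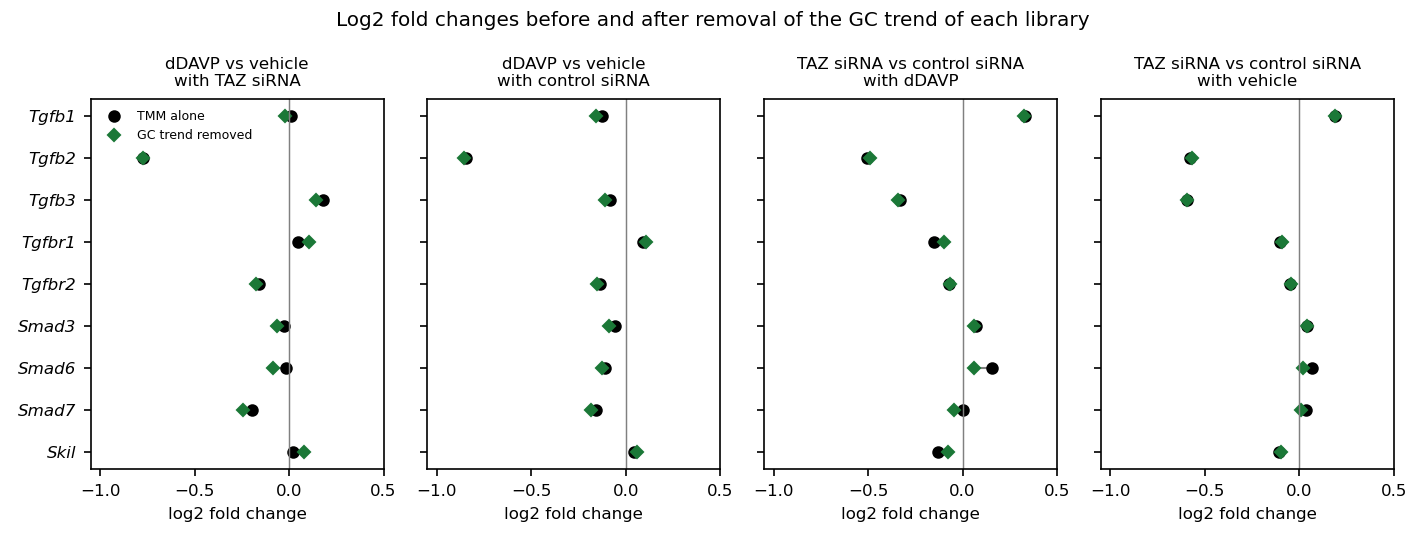
Log2 fold change of the 9 genes with TMM alone (circles) and with the GC trend of each library removed as well (diamonds), in the 4 comparisons. The changes of Tgfb2, Tgfb3 and Tgfbr2 barely move, while Tgfbr1, Smad6 and Skil shift in the comparison of TAZ siRNA with control siRNA under dDAVP.

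Markers of other cell types were low, with one exception. Of 6 fibroblast markers Col3a1, Dcn and Lum were listed at 0, and the summed level was 4.67 to 5.82 CPM with TAZ siRNA and dDAVP, 4.44 to 5.35 CPM with control siRNA and dDAVP, 6.02 to 7.16 CPM with TAZ siRNA and vehicle and 5.26 to 6.49 CPM with control siRNA and vehicle. The 5 endothelial markers summed to at most 0.275 CPM and the 5 intercalated-cell markers to at most 0.212 CPM. Of 6 immune markers 4 were listed at 0, and the sum did not exceed 4.52 CPM. The exception was the proximal tubule list, through Lrp2, an endocytic receptor, while its other genes Cubn, Slc34a1 and Slc5a2 did not exceed 1.22 CPM. The 4 genes summed to 125 to 136 CPM with TAZ siRNA and dDAVP, 153 to 169 CPM with control siRNA and dDAVP, 139 to 154 CPM with TAZ siRNA and vehicle and 180 to 190 CPM with control siRNA and vehicle. Like Tgfb2, Lrp2 was called lower in all 4 comparisons, with dDAVP under TAZ siRNA (-0.17 ± 0.05, adjusted p = 0.0252) and control siRNA (-0.21 ± 0.05, adjusted p = 0.00314), and with TAZ siRNA under dDAVP (-0.30 ± 0.05, adjusted p = 0.00043) and vehicle (-0.34 ± 0.05, adjusted p = 0.000363). The part of these genes in the changes of the 9 genes was not tested.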

How the data were processed

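Messenger RNA of 12 libraries in 4 groups was analysed. The estimated counts per gene and per transcript were deposited by the authors as whole numbers, not normalised, so no rounding was needed although the design had allowed for other units. The authors also deposited TPM per gene and FPKM per transcript, per the file headers. FPKM served to check how counts were made: gene counts equalled summed transcript counts in all but 12 of 549324 values, and the counts are rounded estimates. The submitters' processing notes name Bowtie 0.12.2, mm8 and mm10, without roles; no source used here names the tool that counted. Per-sample values in 24 further columns were left unused.

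Counts were fitted in R 4.3.3 with edgeR 4.0.16 (filterByExpr, minimum count 10; TMM; robust quasi-likelihood; 1 mean per group over all 12 libraries), giving 5 contrasts. SE come from the log2 fold change divided by the root of F. Libraries of 1 group differed by more than sampling noise in each pair (chi-square over degrees of freedom between 4.20 and 13.2), and none was merged. The coefficient of variation between replicate libraries, as edgeR estimates it beyond counting noise, was 5.11%, and it may be technical. A count of 3 equals 0.0486 to 0.0665 CPM. The fit was tested on simulated data.

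The 9 genes and the 5 lists of related genes were chosen with earlier results of these data known. Named were the 9 genes, Wwtr1, Aqp2 and, from each list and contrast, examples among the 4 called genes with the largest change; for likeness, up to 3 genes with the highest correlation. Genes listed at 0, others set beside them, and markers are named with their lists. Alternatives were DESeq2 1.42.0 and its size factors, limma-voom (limma 3.58.1), no filter, the compared groups alone, a replicate block, each library left out, and a GC correction chosen after seeing the data. For the latter, 90.8% of tested genes had a GC value from GENCODE M21 transcripts.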

Additional observations from a re-analysis of the deposited data

How the results depend on the processing

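The calls of Tgfb2 in all 4 comparisons, of Tgfbr2 in both dDAVP comparisons, of Tgfb3 in both TAZ siRNA comparisons and of Tgfb1 with TAZ siRNA under dDAVP were kept in all 12 fits that left out a library and in all 7 other alternatives. Smad7 and Skil were not as stable, as given with their values. Over the alternatives that kept all libraries, 722 values stayed on their side, 10 gained a call, 29 lost one and 7 turned sign.

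Whether the replicate numbers pair the samples was not settled. The 18 same-numbered pairs correlated from -0.107 to 0.284 and the 36 other pairs from -0.300 to 0.175, and 4 of 12 libraries correlated best with their own number. With a replicate block, 3 of the 9 genes were called for dDAVP under control siRNA (Smad7 added, adjusted p = 0.0449) and 5 for TAZ siRNA with dDAVP (Tgfbr1 added, adjusted p = 0.0177).

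Values that turned sign were all uncalled. Tgfb1 with dDAVP under TAZ siRNA was -0.0057 with no filter and -0.021 with the GC correction. Smad7 with TAZ siRNA under dDAVP was -0.00048 with DESeq2's size factors, -0.011 with no filter, -0.00053 with DESeq2 and -0.046 with the GC correction. Skil in the difference of responses was 0.0195 with the GC correction. Leaving out a library gave, with dDAVP under TAZ siRNA, -0.0572 to 0.0714 for Tgfb1, -0.109 to 0.0657 for Smad6, -0.00943 to 0.102 for Tgfbr1 and -0.00871 to 0.0479 for Skil. It gave -0.0255 to 0.0796 for Smad7 with TAZ siRNA under vehicle and -0.0518 to 0.0353 under dDAVP. For the difference of responses it gave -0.0837 to 0.173 for Tgfb2, -0.0976 to 0.0142 for Tgfbr1, -0.0838 to 0.0239 for Smad7 and -0.0583 to 0.00917 for Skil. The causes were not tested.

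Genes called in the difference of responses numbered 5, and 12 with no filter and 87 with DESeq2. Of the 9 genes, 5 were called for dDAVP under control siRNA with the GC correction. With no filter, dDAVP under TAZ siRNA called 809 genes higher and 854 lower, against 1016 and 703. Leaving out a library, dDAVP called 1118 to 1752 genes under TAZ siRNA (fewest without TAZ siRNA vehicle replicate 2) and 2103 to 3250 under control siRNA. TAZ siRNA called 1049 to 1912 genes with dDAVP, falling to 1054 and 1110 when TAZ siRNA dDAVP replicate 1 or 3 was dropped, and to 1114 and 1049 for control siRNA dDAVP replicate 2 or 3. With vehicle it called 410 to 1435 genes, falling to 410 and 511 when TAZ siRNA vehicle replicate 2 or 3 was dropped, and to 504 and 578 for control siRNA vehicle replicate 1 or 3. The difference of responses gave 3 to 16 genes, with 16 without TAZ siRNA vehicle replicate 1. Of the 9 genes, dDAVP called 2 to 4 under TAZ siRNA and 2 to 3 under control siRNA, TAZ siRNA called 3 to 5 with dDAVP and 2 to 5 with vehicle (5 without TAZ siRNA vehicle replicate 1), and the difference 0 to 0. Tgfb2 had 266 to 973 counts per library, the lowest of the 9 genes except in control siRNA vehicle libraries, where Smad6 was lower (662 to 833).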
